A study of Mus musculus with 12 samples.

Results

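RNA sequencing of mouse gastric organoids kept with Fusobacterium nucleatum was set against untreated organoids, in all genes that passed a filter on low counts. Of the 25759 genes in the deposited table, 12805 passed the filter and were tested, and 48 pancreatic genes among them were set aside, which left 12757 to describe. Gastric organoids are hollow balls of stomach epithelium raised in culture. The tested group was 3 libraries of organoids incubated for 4 h with Fusobacterium nucleatum, and the other group was 3 libraries of untreated organoids. All organoids were grown in matrigel and moved at the first passage to medium without growth factors and without antibiotics, so the untreated organoids carried that change too. The labels give no strain, sex or age for the mice, no dose or strain for the bacteria, and no word on whether replicates were separate cultures or animals, so the p-values cover the spread between libraries, which may be technical. Another 6 libraries of the series, 3 each with Helicobacter pylori and Neisseria subflava, shared the fit and are used below only to ask whether a change was larger or smaller with Fusobacterium.

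Fusobacterium nucleatum is an anaerobic bacterium of the mouth, found also in inflamed gut and in tumours of the digestive tract. Its lipopolysaccharide and adhesins are sensed by epithelial receptors that release NF-kB, a transcription factor, from its inhibitors, and NF-kB then drives chemokines that attract neutrophils. Gastric epithelium also answers injury with ligands of the epidermal growth factor (EGF) receptor, with stress enzymes controlled by the factor NRF2, and with changes in the mucus, ion transport and transcription factors that mark its cell types.

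Total counts ran from 16955155 to 18192411 in the Fusobacterium libraries and from 17248185 to 22720399 in the untreated libraries. All 16 gastric epithelium markers were detected, with a summed level of 23366 to 24218 TPM with Fusobacterium and 24647 to 25773 TPM untreated, and in the test described below 12 of them were lower with Fusobacterium (Sox2, Gata5, Gata6, Gkn1 and Cldn18 among them), 1 was higher (Krt18) and 3 did not pass. These 3, the general epithelial genes Cdh1, Epcam and Krt8, averaged 944, 777 and 5707 TPM with Fusobacterium and 918, 758 and 5436 TPM in untreated organoids, where TPM is the deposited level, scaled for gene length and library size. The summed level of 7 fibroblast markers was 4.22 to 6.54 TPM with Fusobacterium and 4.69 to 4.91 TPM untreated, that of 5 leukocyte markers 0.277 to 1.45 TPM with Fusobacterium and 0.363 to 0.791 TPM untreated, and that of 3 endothelial markers 0.749 to 1.21 TPM with Fusobacterium and 0.288 to 0.538 TPM untreated. Of the parietal cell markers, Atp4b was at 0 in all 6 libraries and Atp4a was at 1.69 to 2.73 TPM. Summed levels of 7 enteroendocrine markers were 0.497 to 1.51 TPM with Fusobacterium and 13.7 to 16.1 TPM untreated, carried mainly by Chga and Sst, which are also islet genes and are set aside. Untreated replicate 3 differed most from the other untreated libraries and was the one of these 6 whose column header carries the mark L0 in place of L1.

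The difference between the groups was broad and mostly modest in size. By the quasi-likelihood test of edgeR, at a Benjamini-Hochberg adjusted p under 0.05 over all genes tested, 4206 genes were higher with Fusobacterium (32.8%) and 4150 were lower (32.4%). Those shares of all genes tested are the ones to set beside the counts of higher and lower members in each list below. At least 2-fold differences were found in 1268 of the higher genes (9.90% of those tested) and in 615 of the lower (4.80%). Of the higher genes 2048 differed by less than 1.5-fold and 411 by more than 4-fold, while of the lower genes 2467 differed by less than 1.5-fold and 94 by more than 4-fold. The excess of rises of at least 2-fold lay mainly in genes of low level. With pancreatic genes aside, genes averaging under 1 TPM over the 12 libraries held 433 such rises and 96 such falls. Counts were 274 and 84 from 1 to 3 TPM, and 294 and 180 from 3 to 10 TPM. From 10 to 30 TPM they were 154 and 137, from 30 to 100 TPM 71 and 72, and above that 41 and 14. Every Fusobacterium library lay above every untreated library in TPM for 37.7% of genes and below for 33.0%. In tests against the other bacteria, 21.7% of genes were higher with Fusobacterium than in each of the other groups, and 21.4% were lower than in each. Among the 4206 genes higher than in untreated organoids, 66.1% were also above both other bacteria, and among the 4150 lower genes 65.9% were below both, which are the shares to set beside such counts in the lists. These contrasts share the Fusobacterium libraries with the main one, so they are not independent of it. In bulk RNA, fewer cells of a kind and less RNA per cell cannot be told apart, and this applies to every lower level below.

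**Figure D1:**
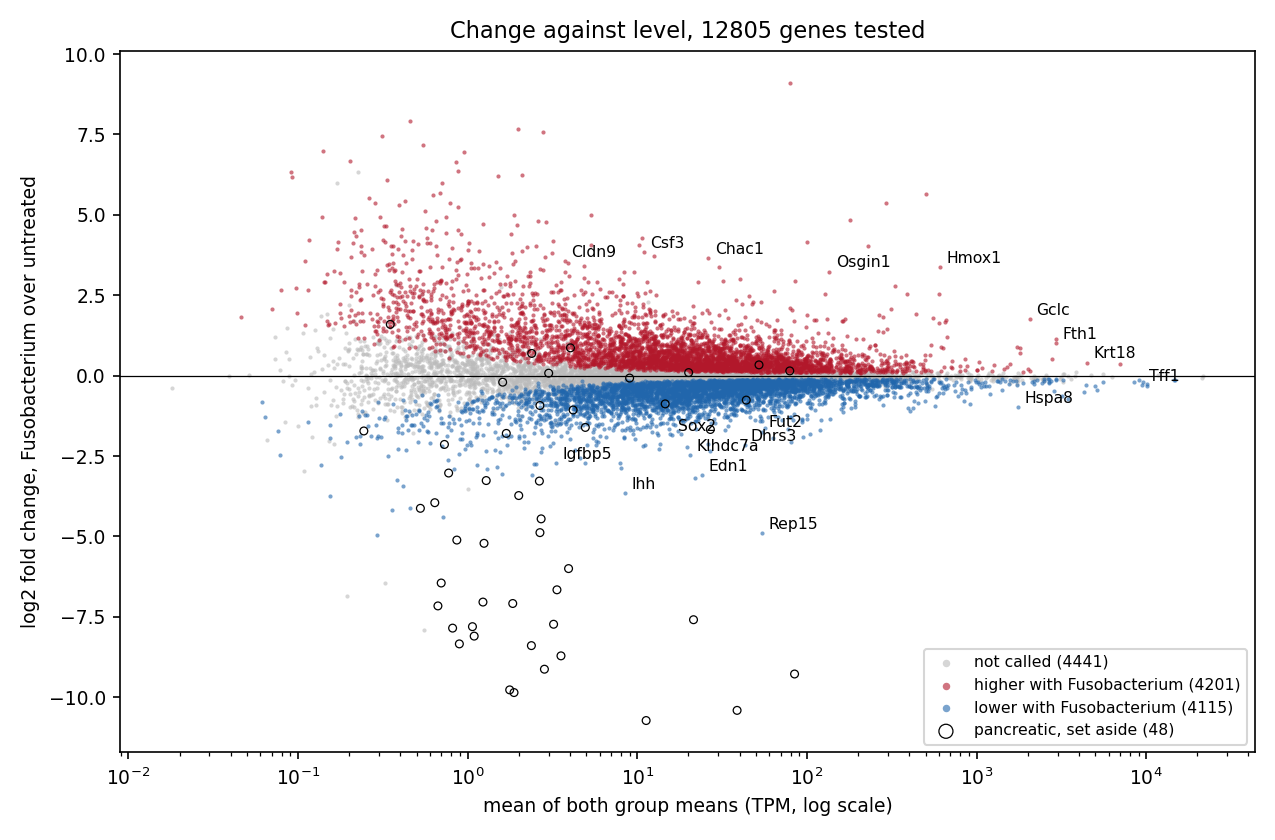
Each point is a gene, with the mean of the group means on the x axis (TPM, log scale) and the log2 fold change of Fusobacterium over untreated on the y axis. Red genes passed the threshold as higher (4201) and blue as lower (4115) once the 48 pancreatic genes (open circles) were set aside, and Rep15 stands lowest among the named genes.

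Genes named below follow a rule: ranks 13 to 30 of the rises and 1 to 20 of the falls by log2 fold change, the 10 largest rises and falls in TPM, and up to 5 members at each end of a gene list. Ranked candidates passed the threshold, had groups that did not overlap, and averaged at least 5 TPM in one group, and since the rule used this contrast the values are a description of it. The 12 larger rises are not described by rank. The rises from rank 13 to 30 lay between 3.01 and 3.85 on the log2 scale. The cytokine Csf3, which encodes the granulocyte colony-stimulating factor that calls forth neutrophils, had 21.1, 19.6 and 20.8 TPM in the Fusobacterium libraries, against 0.931, 1.32 and 1.94 TPM in the untreated libraries. Its log2 fold change was 3.85 ± 0.19 (SE). The groups did not overlap, and Neisseria libraries were higher still, with a difference of Fusobacterium over Neisseria of -0.47 ± 0.13.

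Ranks 17 to 24 held Chac1, Ahrr, Hmox1 and Osgin1. Hmox1, the heme-degrading oxygenase, had 1116, 1111 and 1121 TPM with Fusobacterium, against 106, 108 and 101 TPM in untreated organoids (3.38 ± 0.05 log2, adjusted p = 1.51e-24). Osgin1, an oxidative stress-induced growth inhibitor, had 245, 240.3 and 252 TPM in organoids kept with Fusobacterium, against 26.95, 22.5 and 26.8 TPM without bacteria, a difference of 3.23 ± 0.07 log2. Both were also higher with Fusobacterium than with either other bacterium, Osgin1 by 2.70 ± 0.07 log2 over Helicobacter and 2.63 ± 0.07 log2 over Neisseria. Chac1, which breaks down glutathione, had 48.98, 50.8 and 46.3 TPM in the Fusobacterium libraries, against 4.201, 4.97 and 2.17 TPM in the untreated libraries, and Ahrr, a repressor of the aryl hydrocarbon receptor, averaged 8.88 ± 0.763 TPM with Fusobacterium and 0.822 ± 0.0182 TPM untreated (SD, n = 3 each). Chac1 and Ahrr were lower with Fusobacterium than with Neisseria, by differences of -1.82 ± 0.08 and -0.70 ± 0.09 log2.

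Cldn9, a tight junction claudin, had 6.71, 7.697 and 6.32 TPM with Fusobacterium, against 0.634, 0.558 and 0.478 TPM in untreated organoids. Coro1a, an actin-binding coronin best known from blood cells, had 14.4, 14.5 and 16.3 TPM in organoids kept with Fusobacterium, against 1.49, 1.78 and 1.52 TPM without bacteria, and its log2 fold change was 3.21 ± 0.22. In the same libraries the leukocyte marker Ptprc was at 0.173 to 0.805 TPM with Fusobacterium and 0.112 to 0.237 TPM untreated, and whether leukocyte RNA had a part in Coro1a was not tested. Layn, a hyaluronan receptor of the membrane, averaged 8.71 ± 1.12 TPM with Fusobacterium and 1.03 ± 0.246 TPM untreated (SD, n = 3 each). Rem2, a small GTPase that restrains voltage-gated calcium channels, had 56.3, 53.6 and 55.4 TPM in the Fusobacterium libraries, against 5.26, 4.79 and 5.48 TPM in the untreated libraries, a log2 fold change of 3.37 ± 0.10.

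The rest of these ranks held Gatsl3 (3.70 ± 0.36 log2), the arginine sensor known as Castor1, and Mapk15 (3.52 ± 0.33), an atypical MAP kinase. Rassf4 (3.29 ± 0.25), with a Ras association domain, Sgtb (3.22 ± 0.17), a co-chaperone, and Dpf1 (3.22 ± 0.26), a subunit of the BAF chromatin remodelling complex in neurons, were higher too. So were Ndrg4 (3.10 ± 0.25), Fam131c (3.71 ± 0.29), Gm13283 (3.82 ± 0.51) and 1500009L16Rik (3.01 ± 0.27). Of the 18 genes, 15 were also higher with Fusobacterium than with each other bacterium, the exceptions being Csf3, Chac1 and Ahrr.

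The largest gains in level, in TPM, included Gclc and Fth1. Gclc, the catalytic subunit of the enzyme that limits glutathione synthesis, had 3179, 3184 and 3249 TPM with Fusobacterium, against 925, 940.0 and 901 TPM in untreated organoids, a log2 fold change of 1.77 ± 0.04. Fth1, the ferritin heavy chain that stores iron, averaged 3977 TPM with Fusobacterium and 1909.8 TPM untreated (1.03 ± 0.05 log2), and the light chain Ftl1 7932 TPM with Fusobacterium and 5981 TPM untreated (0.38 ± 0.04). Gstp1, a glutathione transferase, stood at 0.86 ± 0.05 log2 and the metallothionein Mt2 at 0.89 ± 0.06. Cxcl5, a neutrophil chemokine, had 4173, 3913 and 4104 TPM in organoids kept with Fusobacterium, against 1796, 1798 and 1846 TPM without bacteria, and the keratin Krt18 averaged 5138 TPM with Fusobacterium and 3791 TPM untreated. Dstn, which cuts actin filaments, was 0.52 ± 0.04 log2 higher. Lars2, the mitochondrial leucyl-tRNA synthetase, had 1043, 1015 and 910.0 TPM in the Fusobacterium libraries, against 18.9, 19.6 and 18.96 TPM in the untreated libraries. In mouse part of the Lars2 transcript resembles mitochondrial ribosomal RNA, which is not among the genes tested, so its reads may be shared and the value is uncertain. Of these 10 with Hmox1 counted among them, 7 also exceeded both other bacteria, and Cxcl5, Krt18 and Dstn did not.

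**Figure D2:**
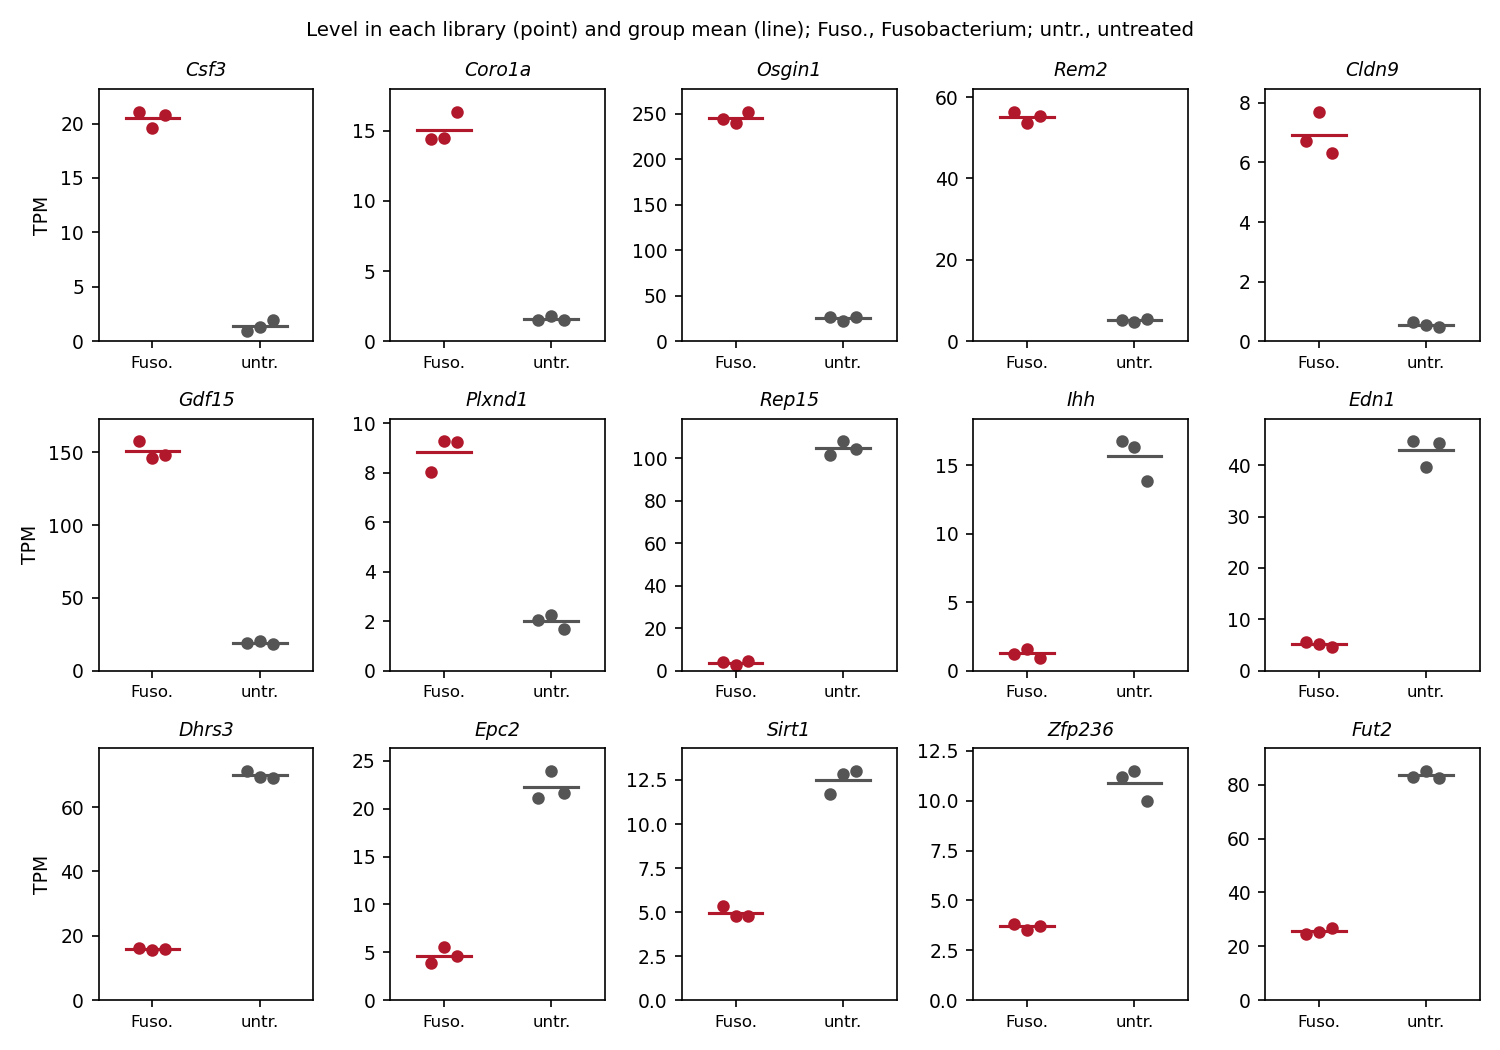
Level in TPM of 15 genes in each Fusobacterium library (red points, left) and each untreated library (grey points, right), with group means as lines and axes from 0. The groups do not overlap in any panel, which the naming rule required of the ranked genes. Rep15 is at 2.47 to 4.38 TPM in the Fusobacterium libraries and 102 to 108 TPM in the untreated ones.

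Many secreted signals were higher. Of 34 chemokines and cytokines tested, of 52 listed, 20 were higher and 5 lower with Fusobacterium, with a median log2 fold change of 0.95, against -0.0029 over all genes tested. Cxcl2, which attracts neutrophils, had 359, 333 and 355 TPM with Fusobacterium, against 13.1, 10.1 and 12.2 TPM in untreated organoids. Its neighbour Cxcl1, with the same role, had 430.1, 435 and 437 TPM in organoids kept with Fusobacterium, against 27.1, 26.8 and 23.2 TPM without bacteria. In both the groups lay far apart. Ccl20, which draws dendritic cells and lymphocytes through the receptor CCR6, averaged 132 ± 0.846 TPM with Fusobacterium and 31.3 ± 0.935 TPM untreated (SD, n = 3 each). Only 3 of the 20 were also above both other bacteria, and the same list had medians of 0.24 in Helicobacter and 1.41 in Neisseria libraries over untreated, which share their untreated libraries with this comparison. The 5 lower members were Clcf1 (-3.17 ± 0.11) and Lif (-0.57 ± 0.06), of the interleukin-6 family, Cxcl17 (-0.70 ± 0.06), a mucosal chemokine, Il18 (-0.27 ± 0.08), which inflammasomes release, and Ltb (-0.52 ± 0.22), of the TNF family, whose groups overlapped and whose call was lost in 8 of the 16 alternative analyses.

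Of 31 genes of the NF-kB core, 20 were higher and 4 lower, with a median of 0.34. Among the members of at least 5 TPM the inhibitors led, with Tnip3 (1.07 ± 0.05) beside them: Nfkbie (1.94 ± 0.16 log2) and Nfkbia (1.70 ± 0.06), which hold NF-kB in the cytoplasm, Nfkbiz (1.51 ± 0.04), a nuclear member of the family, and Zc3h12a (1.02 ± 0.06), an RNase that destroys cytokine transcripts. Nfkbia had 246, 235 and 258 TPM in the Fusobacterium libraries, against 82.5, 72.9 and 67.5 TPM in the untreated libraries. Tab1, which activates the kinase TAK1, and Ikbkg, the regulatory subunit of the IkB kinase, were lower at -0.99 ± 0.07 and -0.68 ± 0.06 log2. Of the NF-kB subunits, Rela was -0.14 ± 0.06 log2, a call lost in 10 of the 16 alternative analyses, and Nfkb1 did not pass (adjusted p = 0.235).

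Promoters of 4 genes that rose and hold matches to the kappaB motif, GGG, any 2 bases and TTTCC (both strands searched), are shown, since these genes are textbook NF-kB targets. Capitals mark matches to that motif, overlapping with the shorter GGAATTTCC, in the 150 bases before the start of transcription, from RefSeq promoters of build GRCm38.p6.
Cxcl1 promoter, chr5:90891095-90891244, plus strand: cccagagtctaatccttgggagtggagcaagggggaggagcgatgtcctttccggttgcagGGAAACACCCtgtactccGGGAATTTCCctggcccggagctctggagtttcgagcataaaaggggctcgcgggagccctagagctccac
Cxcl2 promoter, chr5:90903749-90903898, plus strand: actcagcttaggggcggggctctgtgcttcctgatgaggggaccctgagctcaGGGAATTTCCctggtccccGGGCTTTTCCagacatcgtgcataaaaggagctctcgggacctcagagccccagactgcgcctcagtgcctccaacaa
Ccl20 promoter, chr1:83116616-83116765, plus strand: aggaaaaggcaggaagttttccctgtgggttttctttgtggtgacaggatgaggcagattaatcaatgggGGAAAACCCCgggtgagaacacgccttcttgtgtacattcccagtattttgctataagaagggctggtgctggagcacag
Nfkbia promoter, chr12:55492648-55492797, minus strand: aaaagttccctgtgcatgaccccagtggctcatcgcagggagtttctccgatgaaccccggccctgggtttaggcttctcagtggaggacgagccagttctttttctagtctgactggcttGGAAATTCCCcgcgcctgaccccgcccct

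The matches begin 89 and 71 bases before the start in Cxcl1, 97 and 78 in Cxcl2, 80 in Ccl20 and 29 in Nfkbia. RefSeq promoters of 300 bases, from 250 before to 50 after the start, were found by symbol for 9922 of the genes described. The longer motif was in 1.67% of them, in 2.41% of the 956 promoters of genes at least 2-fold higher and in 1.62% of the 432 of genes at least 2-fold lower. GGAATTTCC was in 10 of the 956, in none of the 432 and in 36 of all 9922. A match describes the letters only, and the first promoter listed was used for genes with several.

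Genes of the EGF receptor pathway leaned upward: 23 of 32 tested (of 35 listed) were higher, 4 lower, with a median of 0.46, and 18 of the 23 were above both other bacteria, where 66.1% of all higher genes were. Among the ligands, Areg had 1014, 984 and 988 TPM with Fusobacterium, against 309, 301 and 314 TPM in untreated organoids, named after its values were seen, and Ereg averaged 171 ± 4.16 TPM with Fusobacterium and 50.2 ± 0.612 TPM untreated (SD, n = 3 each). Btc, another ligand, was lower (-0.32 ± 0.06 log2), as was the receptor Erbb2 (-0.28 ± 0.06). Downstream genes were higher: Etv5, a factor induced by ERK signalling, by 1.95 ± 0.10 log2, Ier3, an immediate-early gene, by 1.81 ± 0.05, and the feedback inhibitors Spry4 and Spred3 by 1.89 ± 0.18 and 1.70 ± 0.13. Spry2, a relative of Spry4, was lower at -0.30 ± 0.11, a call lost without Fusobacterium replicate 1 or without untreated replicate 1 or 2 (-0.29, -0.25 and -0.28).

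The promoters of Areg and of Srxn1 are shown for other motifs. In Areg the capitals mark TGACGTCA, the site of CREB and ATF factors, 61 bases before the start, and in Srxn1 they mark TGANTCA, the AP-1 site, 102 and 45 bases before the start.
Areg promoter, chr5:91139449-91139598, plus strand: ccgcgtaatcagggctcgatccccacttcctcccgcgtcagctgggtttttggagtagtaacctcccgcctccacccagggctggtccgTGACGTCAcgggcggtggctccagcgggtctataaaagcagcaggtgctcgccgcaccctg
Srxn1 promoter, chr2:152105374-152105523, plus strand: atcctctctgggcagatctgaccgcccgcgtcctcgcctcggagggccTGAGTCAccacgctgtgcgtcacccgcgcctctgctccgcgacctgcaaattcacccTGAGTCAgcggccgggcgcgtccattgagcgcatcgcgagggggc

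Srxn1, the sulfiredoxin that repairs peroxiredoxins, had 1046, 1008 and 1048 TPM in organoids kept with Fusobacterium, against 171, 176 and 173 TPM without bacteria. TGANTCA was in 6.17% of promoters of genes at least 2-fold higher, 5.32% of those at least 2-fold lower and 5.100% of all, and TGACGTCA in 2.72%, 3.01% and 3.29%. Both letter strings read the same on either strand. In all 13 motifs were searched, and the Srxn1 promoter is marked for the AP-1 site only. In the same order, the NRF2 motif was in 16.7%, 11.8% and 14.8%, and the aryl hydrocarbon receptor motif in 6.69%, 6.94% and 8.16%. Shares of the remaining motifs are not given.

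Receptors and morphogens split within their families. Of 26 semaphorins and plexins, guidance ligands and their receptors, 14 were higher and 4 lower (median 0.26). Plxnd1 had 8.03, 9.26 and 9.25 TPM in the Fusobacterium libraries, against 2.05, 2.26 and 1.69 TPM in the untreated libraries, Plxna3 was 1.88 ± 0.09 log2 higher and the ligand Sema7a 1.82 ± 0.10, while Sema4c (-0.74 ± 0.11) and Sema3c (-0.28 ± 0.04) were lower. Of 39 genes of the BMP and TGF-beta families, 19 were higher (48.7%) and 14 lower (35.9%), against 32.8% and 32.4% of all genes tested. The ligand Gdf15, a circulating stress signal, had 158, 146 and 148 TPM with Fusobacterium, against 19.3, 20.1 and 18.7 TPM in untreated organoids and stood 2.93 ± 0.06 log2 higher; Gdf11 (2.70 ± 0.17) and the binding protein Fstl3 (2.46 ± 0.19) were higher and the activin inhibitor Fst lower (-1.22 ± 0.11). The signal transducers Smad2 and Smad5 were lower at -0.48 ± 0.05 and -0.59 ± 0.06 log2.

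In the Notch list 13 of 26 were higher (50%) and 9 lower (34.6%), against 32.8% and 32.4% of all genes tested. Nrarp, a feedback inhibitor of Notch, averaged 63.8 ± 1.91 TPM with Fusobacterium and 12.3 ± 0.356 TPM untreated (SD, n = 3 each). The target Hes1 was lower at -0.60 ± 0.07, as was the ligand Jag1 (-0.88 ± 0.10), while the ligand Jag2 was higher (0.62 ± 0.07). Wnt genes were near the background, with 14 of 43 higher and 13 lower: the receptor Fzd4 (1.53 ± 0.10) was higher, the feedback gene Axin2 averaged 6.27 TPM with Fusobacterium and 2.16 TPM untreated, and Ccnd1, the D-type cyclin, had 260.1, 265 and 265 TPM in organoids kept with Fusobacterium, against 564, 544 and 538 TPM without bacteria.

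In the hedgehog pathway the ligands Ihh and Dhh went opposite ways. Ihh, the ligand of differentiated epithelium in the gut, had 1.23, 1.61 and 0.946 TPM in the Fusobacterium libraries, against 16.7, 16.3 and 13.8 TPM in the untreated libraries, a log2 fold change of -3.65 ± 0.16. Dhh, another ligand, averaged 12.4 ± 0.282 TPM with Fusobacterium and 6.298 ± 0.65 TPM untreated (SD, n = 3 each). Smo, the transducer, was lower (-1.06 ± 0.08), Sufu, which restrains the pathway, higher (0.69 ± 0.09), and the receptor and target Ptch1 higher by 0.27 ± 0.09, a call lost without untreated replicate 3 (0.18) or Fusobacterium replicate 2 (0.24). Of 14 tested 8 were higher (57.1%) and 3 lower (21.4%), against 32.8% and 32.4% of all genes tested. All the lower members reached 2-fold, as did 3 of the 8 higher ones, and not all are named here.

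Membrane traffic and lysosomes leaned upward. Of 60 Rab GTPases and proteins named for binding them, 32 were higher and 11 lower (median 0.31). Rab3a, of regulated secretion, had 19.8, 17.96 and 20.5 TPM with Fusobacterium, against 7.81, 4.41 and 5.504 TPM in untreated organoids. Rab31 (1.49 ± 0.09), Rab4a (1.48 ± 0.14) and Rab8b (1.39 ± 0.11), of endosomal and surface traffic, were higher. Rab19 (-1.49 ± 0.19), Rab11b (-0.93 ± 0.05) and Rab32 (-0.88 ± 0.07) were lower, as was Rab11fip2 (-1.36 ± 0.13), which binds Rab11. Of 45 lysosomal genes 27 were higher and 3 lower. Rragd, a GTPase that reports amino acids to mTORC1, had 12.7, 11.6 and 12.6 TPM in organoids kept with Fusobacterium, against 1.72, 1.91 and 2.301 TPM without bacteria, and the sialidase Neu1 and the cholesterol exporter Npc1 stood 1.16 ± 0.06 and 1.42 ± 0.07 log2 higher. The lower ones were Scarb2 (-0.52 ± 0.05), Gusb (-0.31 ± 0.06) and Cd63 (-0.19 ± 0.06), whose call was lost without Fusobacterium replicate 2 (-0.16) or untreated replicate 3 (-0.14). In autophagy, 20 of 39 were higher and 7 lower. The cargo receptor Sqstm1 had 917, 899 and 908 TPM in the Fusobacterium libraries, against 295, 295 and 275 TPM in the untreated libraries. Ulk2, a kinase that starts autophagy, was lower, with 3.07, 2.64 and 2.66 TPM with Fusobacterium, against 7.13, 7.97 and 7.01 TPM in untreated organoids.

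Lists of metabolism and transport divided. More members were lower than higher in nucleotide and one-carbon metabolism (21 lower, 4 higher), in ion and acid transport (18 lower, 10 higher) and among sulfotransferases and UDP transferases (10 lower, 2 higher), whereas those that follow leaned upward. Of 20 polyamine genes 13 were higher and 3 lower (median 0.45): the antizyme inhibitor Azin2 had 19.7, 19.5 and 18.97 TPM in organoids kept with Fusobacterium, against 1.05, 1.200 and 1.15 TPM without bacteria. The arginase Arg2, which makes ornithine, had 15.1, 14.5 and 14.05 TPM in the Fusobacterium libraries, against 1.77, 1.496 and 2.64 TPM in the untreated libraries. The rate-limiting decarboxylase Odc1 (-0.28 ± 0.04) and spermidine synthase Srm (-0.48 ± 0.07) were lower. Of 53 genes of lipid storage and oxidation 32 were higher and 9 lower, with 25 of the 32 above both other bacteria (66.1% over all higher genes). Ppargc1a, a coactivator for mitochondrial genes, averaged 6.19 ± 0.551 TPM with Fusobacterium and 0.931 ± 0.249 TPM untreated (SD, n = 3 each), and Lpin2, a phosphatidate phosphatase, averaged 39.9 TPM with Fusobacterium and 16.4 TPM untreated. Dgat2, which makes triglyceride, was 1.14 ± 0.11 log2 higher. Pparg (-0.31 ± 0.05) and Fabp5 (-0.42 ± 0.05), a fatty acid carrier, were lower. Of 40 mitochondrial carriers 20 were higher and 7 lower, and of 31 ABC transporters 16 were higher and 6 lower, with the cholesterol exporter Abcg1 at 1.67 ± 0.16 log2. Among amino acid transporters (14 of 33 higher, 7 lower), Slc1a4 had 127, 133 and 128 TPM with Fusobacterium, against 29.7, 30.5 and 27.5 TPM in untreated organoids, and the glutamine carrier Slc38a2 was lower (-0.66 ± 0.04).

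**Figure D3:**
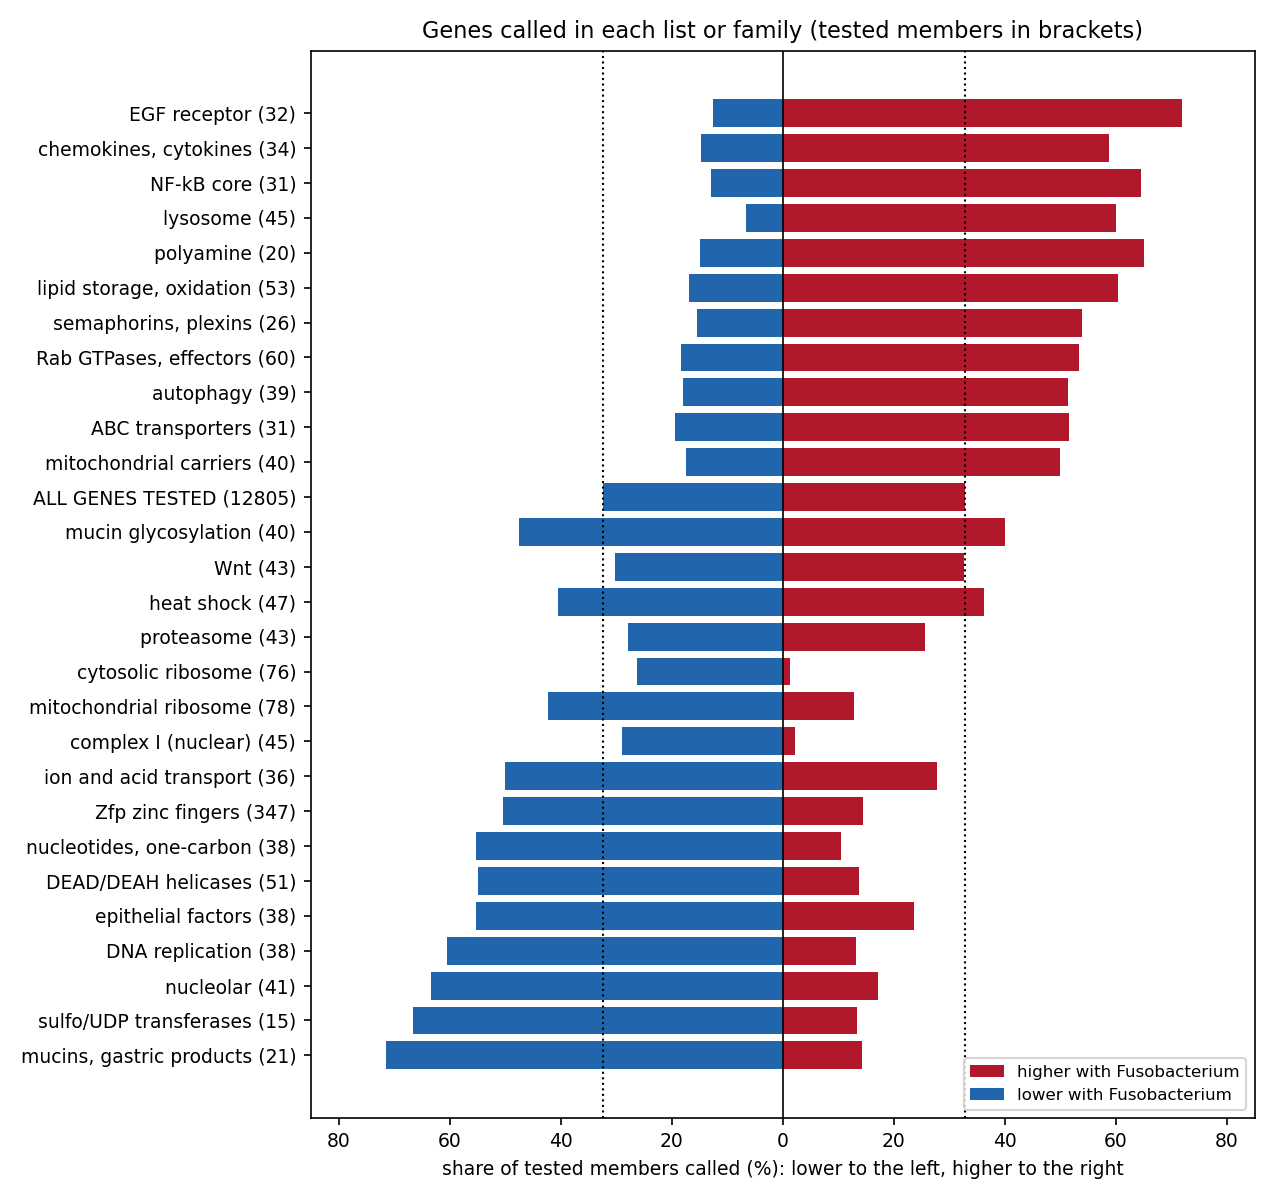
Bars show the share of tested members of each list called higher (red, right) or lower (blue, left) with Fusobacterium. Dotted lines mark the shares of all genes tested, 32.8% higher and 32.4% lower, and the EGF receptor list is the farthest to the right, with 71.9% higher.

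Rep15 had the largest fall. It encodes an effector of Rab15, a GTPase of the recycling endosome, and had 3.89, 2.47 and 4.38 TPM in organoids kept with Fusobacterium, against 102, 108 and 104 TPM without bacteria, a log2 fold change of -4.90 ± 0.11 (adjusted p = 1.62e-20). The difference was -4.32 ± 0.12 log2 from Helicobacter and -1.93 ± 0.14 log2 from Neisseria. Ihh and Clcf1 followed, and then Edn1, the vasoactive peptide endothelin-1, with 5.63, 5.16 and 4.62 TPM in the Fusobacterium libraries, against 44.6, 39.7 and 44.3 TPM in the untreated libraries. Igfbp5, which binds insulin-like growth factors, stood at -2.71 ± 0.18 log2, and Dhrs3, which turns retinaldehyde back into retinol, had 16.1, 15.7 and 15.8 TPM with Fusobacterium, against 71.3, 69.3 and 68.99 TPM in untreated organoids.

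The 20 largest falls included Epc2, Meaf6, Kmt5b, Bend3, Kdm8 and Tfap4. Epc2, a subunit of the NuA4 acetyltransferase complex, had 3.88, 5.52 and 4.59 TPM in organoids kept with Fusobacterium, against 21.1, 23.96 and 21.7 TPM without bacteria. Meaf6, a subunit shared by MYST acetyltransferases, stood at -2.15 ± 0.12 log2, Kmt5b, which methylates histone H4, at -2.19 ± 0.07, and Bend3, a factor of heterochromatin, at -2.16 ± 0.12. Kdm8, a JmjC-domain oxygenase, was -2.30 ± 0.19 and the helix-loop-helix factor Tfap4 -2.71 ± 0.17. Of 35 genes of histone acetylation 14 were lower and 11 higher, where 32.4% and 32.8% of all genes tested were. The deacetylase Sirt1 had 5.37, 4.76 and 4.77 TPM in the Fusobacterium libraries, against 11.7, 12.8 and 13.01 TPM in the untreated libraries, and the acetyltransferases Kat6b (-1.25 ± 0.10) and Crebbp (-0.99 ± 0.09) were lower.

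The others were Klhdc7a (-2.48 ± 0.07 log2), Ccdc149 (-2.73 ± 0.16), Kctd14 (-2.21 ± 0.10), Lrrc26 (-2.33 ± 0.13), an auxiliary subunit of BK potassium channels, and Etfbkmt (-2.16 ± 0.12), a mitochondrial lysine methyltransferase. A630076J17Rik (-2.88 ± 0.22), Gm32687 (-2.55 ± 0.27) and D630039A03Rik (-2.13 ± 0.12) completed them. Of the 20, 19 were also lower with Fusobacterium than with each other bacterium. The exception was A630076J17Rik, where the difference from Neisseria was -0.19 ± 0.28 log2. Kctd14 differed in sign from both others: it was higher with Helicobacter (0.98 ± 0.08 log2) and with Neisseria (1.36 ± 0.08) than untreated.

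The largest losses in TPM were in abundant genes and were small in fold. Gsto1, a glutathione transferase of the omega class, had 9097, 9156 and 9181 TPM with Fusobacterium, against 11164, 10923 and 11346 TPM in untreated organoids (-0.32 ± 0.04 log2), and Tff1, the trefoil peptide of surface mucous cells, had 8236, 9115 and 8513 TPM in organoids kept with Fusobacterium, against 9955, 10462 and 10705 TPM without bacteria (-0.30 ± 0.08). The keratin Krt19 stood at -0.45 ± 0.04 log2, Gpx2, a glutathione peroxidase of the gut, -0.62 ± 0.07, and the constitutive chaperone Hspa8 -0.97 ± 0.04. Mitochondrially encoded genes supplied the other 5, with mt-Nd3 at -0.73 ± 0.08 and mt-Nd2 at -0.51 ± 0.04 log2. Of the 13 mitochondrially encoded proteins 9 were lower and none was higher, and mt-Co1 had 21121, 22484 and 21917 TPM in the Fusobacterium libraries, against 21553, 22717 and 20095 TPM in the untreated libraries, where the groups overlapped. Mitochondrial genes took 4.50% to 4.69% of counts in the Fusobacterium libraries and 4.82% to 5.14% in the untreated ones.

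Genes of the zinc finger family named Zfp leaned downward, with 175 of 347 lower and 50 higher and a median of -0.32. Zfp236 had 3.83, 3.53 and 3.72 TPM with Fusobacterium, against 11.2, 11.5 and 9.97 TPM in untreated organoids. Zfp518b had 2.56, 2.05 and 2.396 TPM in organoids kept with Fusobacterium, against 6.64, 6.58 and 5.94 TPM without bacteria. In each the groups did not overlap. Zfp217 (1.12 ± 0.06) and Zfp385a (1.41 ± 0.10) were higher. The summed level of the 347 was 3400 to 3474 TPM with Fusobacterium and 3889 to 4028 TPM untreated. The median member had 5.35 TPM with Fusobacterium and 6.60 TPM untreated, against 17.1 and 16.9 TPM for the median gene tested. Many genes of this family lie in clusters of near copies, so reads can be split between them, and single members can be uncertain. Which members lie in such clusters was not checked.

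**Figure D4:**
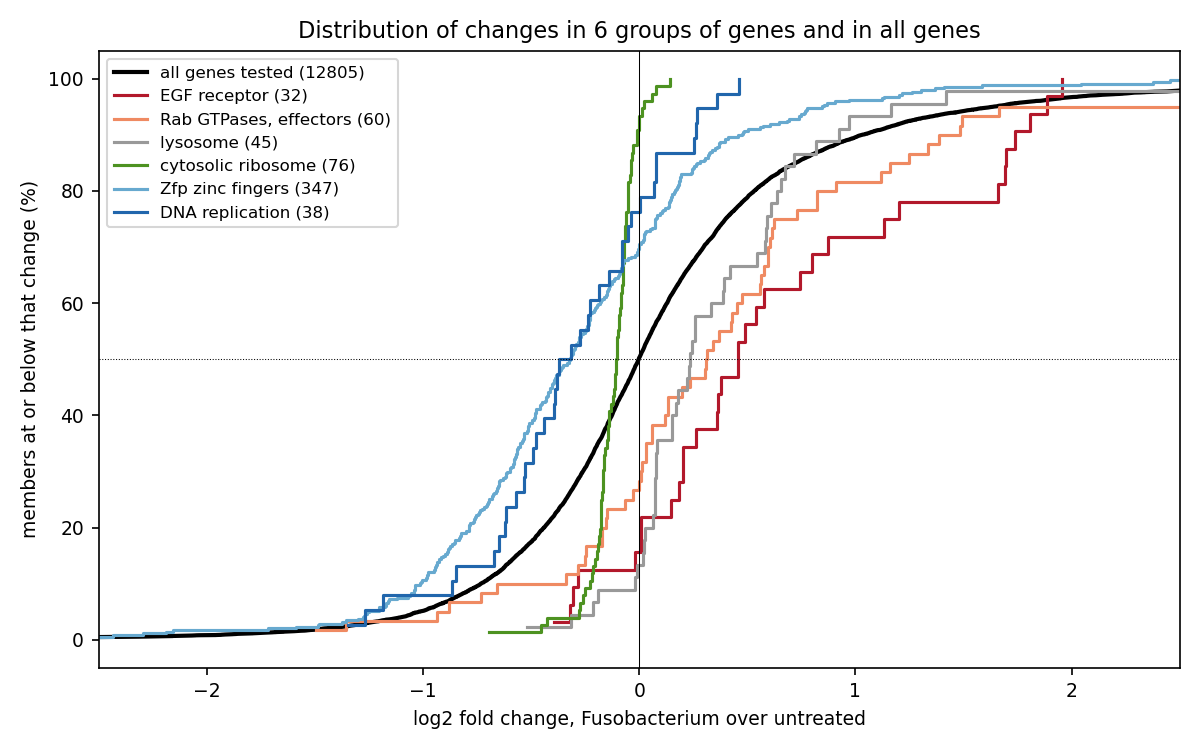
Each curve gives the share of a group of genes (y axis, %) at or below a log2 fold change of Fusobacterium over untreated (x axis). The DNA replication and Zfp curves reach 50% left of 0, the EGF receptor, Rab and lysosome curves right of it, and the cytosolic ribosome is the steepest.

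Replication and growth machinery was lower by small steps. Of 38 genes of the replication machinery 23 were lower and 5 higher (median -0.34), and 16 of the 23 were below both other bacteria, close to the 65.9% of all lower genes. Rfc3, of the clamp loader, had 17.2, 22.3 and 16.1 TPM in the Fusobacterium libraries, against 37.8, 41.7 and 44.6 TPM in the untreated libraries. Cdc45 (-0.86 ± 0.09) and Mcm7 (-0.85 ± 0.04), of the replicative helicase, were lower, while Orc6, of the origin complex, was higher (0.46 ± 0.07). Mcm3ap, at -1.35 ± 0.08 log2, is matched by the name rule but is a protein of mRNA export. Of 38 genes of nucleotide and one-carbon metabolism 21 were lower and 4 higher, with the ribonucleotide reductase Rrm2 at 44.1 TPM with Fusobacterium and 77.5 TPM untreated. Among kinesins 14 of 34 were higher (41.2%) and 12 lower (35.3%), against 32.8% and 32.4% of all genes tested. The mitotic Kif20a (-1.04 ± 0.06), Kif20b (-1.01 ± 0.06) and Kif23 (-0.99 ± 0.05) were lower. The transport kinesins Kif1a (2.46 ± 0.09), Kif21b (2.57 ± 0.11) and Kif3a (1.08 ± 0.07) were higher. The naming rule picks the ends of a list, so these members do not show a division by function.

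Of 41 nucleolar genes 26 were lower and 7 higher (median -0.34): Nol8 had 6.93, 9.18 and 8.51 TPM with Fusobacterium, against 26.5, 26.5 and 26.7 TPM in untreated organoids, and Utp20, of the small-subunit processome, and Nop56, of the box C/D particle, were -1.26 ± 0.07 and -0.87 ± 0.05 log2. Nol3, matched by name and higher at 1.55 ± 0.18, is known for blocking cell death and not for the nucleolus. DEAD and DEAH helicases had 28 of 51 lower and 7 higher, with Ddx6, of mRNA decay, at -0.86 ± 0.05 and Ddx18 at -0.84 ± 0.05. Nucleoporins had 13 of 21 lower and 4 higher, and genes of mRNA decay 22 of 45 lower and 11 higher.

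Ribosomal, proteasomal and respiratory lists moved by small amounts. Of 76 cytosolic ribosomal proteins 20 were lower, 1 was higher and 55 did not pass, with a median of -0.10. All 20 were also lower than in both other bacteria, where 65.9% of all lower genes were. The list itself had medians of 0.17 in Helicobacter and 0.34 in Neisseria libraries over the same untreated ones. Rpl23a had 4846, 4738 and 4801 TPM in organoids kept with Fusobacterium, against 4528, 4623 and 4804 TPM without bacteria, with overlapping groups. Ribosomal genes have many processed copies, so single members such as Rps12 (-0.69 ± 0.16) are uncertain. Of 45 nuclear genes of complex I 13 were lower and 1 higher, of 43 proteasome subunits 12 were lower and 11 higher, and of 78 mitochondrial ribosomal proteins 33 were lower and 10 higher. None of the members of these 4 lists other than proteasome subunits reached 2-fold.

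The transcription factors of epithelium leaned downward, with 21 of 38 lower and 9 higher (median -0.26). Sox2, which marks stomach progenitors, had 7.21, 6.68 and 7.21 TPM in the Fusobacterium libraries, against 26.2, 23.9 and 24.6 TPM in the untreated libraries, and Gata5, of the foregut, 29.1, 31.3 and 27.7 TPM with Fusobacterium, against 78.9, 76.6 and 75.5 TPM in untreated organoids. Sox9 (-1.81 ± 0.09), Foxa1 (-1.34 ± 0.05) and Sox21 (-1.35 ± 0.07) were lower, as was Gata6 (-1.04 ± 0.07), which was named after its values were seen. Grhl3, a factor of barrier repair, had 68.7, 69.5 and 66.7 TPM in organoids kept with Fusobacterium, against 15.9, 13.6 and 12.9 TPM without bacteria, and Klf4 was 1.01 ± 0.05 log2 higher. Sox2 did not differ from Neisseria libraries past the threshold (-0.01 ± 0.12 log2), while Foxa1 was lower than in both other groups.

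Mucus and gastric products had 15 of 21 lower and 3 higher, with a median of -0.59. Gkn1, a gastrokine of surface cells, had 264, 310.2 and 272 TPM in the Fusobacterium libraries, against 461, 690.3 and 522 TPM in the untreated libraries. Its relative Gkn2 had 614, 732 and 627 TPM with Fusobacterium, against 1002, 1415 and 1109.7 TPM in untreated organoids. Muc6, the mucin of neck glands, was -0.99 ± 0.16 log2 and Muc5ac, that of the surface, -1.05 ± 0.31, a call lost without Fusobacterium replicate 1 or 3 or untreated replicate 2 (-0.97, -0.97 and -0.84). Muc4 rose (1.10 ± 0.24). Of the 15 only 4 were below both other bacteria, and the list had a median of -0.73 in Helicobacter and -0.08 in Neisseria libraries over the same untreated ones.

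Enzymes that build mucin sugars split, with 19 of 40 lower and 16 higher. Fut2, the secretor fucosyltransferase, had 24.6, 25.4 and 26.6 TPM in organoids kept with Fusobacterium, against 82.9, 85.1 and 82.4 TPM without bacteria, and the core enzyme Gcnt3 was lower at -1.35 ± 0.04, with Spdef, the factor of mucous cells, at -1.16 ± 0.08. St3gal1, a sialyltransferase, had 5.16, 6.26 and 4.96 TPM in the Fusobacterium libraries, against 0.994, 0.723 and 0.918 TPM in the untreated libraries, and Gcnt1 (1.79 ± 0.06) and B4galt5 (2.24 ± 0.14) were higher. Of 36 genes of ion and acid transport 18 were lower and 10 higher: Slc9a4, a sodium-proton exchanger, had 49.8, 53.9 and 50.5 TPM with Fusobacterium, against 143, 137 and 129 TPM in untreated organoids, and the potassium channel genes Kcnj15 (-1.64 ± 0.09), Kcne3 (-1.39 ± 0.07) and Kcnn4 (-1.02 ± 0.07) and the water channel Aqp5 (-1.06 ± 0.06) were lower, while Aqp3 was higher (1.37 ± 0.19). Sulfotransferases and UDP-glucuronosyltransferases had 10 of 15 lower and 2 higher (median -0.71), with Ugt2b35 at -1.48 ± 0.07 and Sult1c2 at -1.18 ± 0.08. The Ugt genes have near-identical copies and are uncertain one by one.

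Tight junction and integrin genes leaned upward, with single members going both ways. Of 32 tight junction genes 16 were higher (50%) and 8 lower (25%), against 32.8% and 32.4% of all genes tested. Cldn4 had 959, 909 and 932 TPM in organoids kept with Fusobacterium, against 393, 402 and 399 TPM without bacteria, and Cldn2, which makes pores for cations, had 132, 132 and 131 TPM in the Fusobacterium libraries, against 258, 258 and 247 TPM in the untreated libraries. Cldn18, the claudin of stomach, stood at -0.63 ± 0.04 log2 and Marveld2, of the corners between cells, -1.11 ± 0.07. Of 22 integrins 10 were higher (45.5%) and 3 lower (13.6%), with Itgav at 1.11 ± 0.04 and Itgb6 at -0.74 ± 0.05. Limk1, which phosphorylates cofilin, had 12.9, 11.8 and 13.1 TPM with Fusobacterium, against 1.89, 2.76 and 2.08 TPM in untreated organoids, and Rnd1, a GTPase that loosens adhesion, averaged 25.6 TPM with Fusobacterium and 6.26 TPM untreated. Heat shock genes were near the background in count, with 17 of 47 higher (36.2%) and 19 lower (40.4%). Over all genes tested the shares were 32.8% and 32.4%. Hspb1, a small chaperone, had 44.8, 41.1 and 39.04 TPM in organoids kept with Fusobacterium, against 11.2, 9.06 and 9.32 TPM without bacteria. Hspa1a stood 1.47 ± 0.09 log2 higher beside the fall of Hspa8.

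The wider NRF2 list of antioxidant genes had 21 of 43 higher (48.8%) and 14 lower (32.6%), against 32.8% and 32.4% of all genes tested. Its higher share was thus above that of all genes, and its lower share was near it. Of the 21, 18 were above both other bacteria, where 66.1% of all higher genes were. Besides Osgin1, Hmox1, Srxn1 and Gclc, Blvrb, a biliverdin reductase, was 1.31 ± 0.10 log2 higher. Nfe2l2, which encodes NRF2 itself, was lower, with 633, 619 and 622 TPM in the Fusobacterium libraries, against 1044, 1065 and 1042 TPM in the untreated libraries. Keap1, its repressor, was lower too (-0.58 ± 0.05), as were the reductase Cbr3 (-1.01 ± 0.05) and the transferase Gsta3 (-0.54 ± 0.05).

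Receptors that sense bacteria were near the background in count, with 11 of 36 higher and 11 lower. Cd14, the co-receptor that hands lipopolysaccharide to TLR4, was lower, with 59.95, 59.1 and 54.8 TPM with Fusobacterium, against 186, 176 and 181 TPM in untreated organoids. The adaptors Myd88 and Tirap, which carry that signal on, were lower at -0.76 ± 0.08 and -0.99 ± 0.08 log2, and Tlr3, a sensor of double-stranded RNA, at -1.37 ± 0.06. Nod2, which senses bacterial wall fragments inside cells, was higher, with 9.19, 10.5 and 9.42 TPM in organoids kept with Fusobacterium, against 4.04, 3.21 and 3.22 TPM without bacteria, and so was the adaptor Ticam1 (1.06 ± 0.09). Cd14 was also lower than with Helicobacter (-1.80 ± 0.05) and with Neisseria (-2.35 ± 0.05), while Nod2 was below its level with Neisseria (-0.84 ± 0.09).

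In the interferon and antigen list 23 of 53 were higher and 8 lower. Tap2, which pumps peptides to class I molecules, had 5.41, 4.72 and 5.52 TPM in the Fusobacterium libraries, against 2.06, 1.43 and 1.16 TPM in the untreated libraries, and Stat2 and Irf1, factors of the interferon response, stood 1.18 ± 0.10 and 1.12 ± 0.06 log2 higher. Of 34 genes of cytokine receptors and STAT3 signalling 17 were higher and 4 lower, with the kinase Pim2 at 1.60 ± 0.15, the receptor Lifr at 1.06 ± 0.08, and Stat6, which serves interleukin-4, at -0.83 ± 0.05 log2.

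Genes of cell death moved both ways. Of 20 BCL2 family members 6 were higher and 6 lower (30% each), near the 32.8% and 32.4% of all genes tested. Bcl2l11, which encodes the death activator BIM, had 41.6, 42.5 and 42.6 TPM with Fusobacterium, against 10.05, 11.9 and 10.1 TPM in untreated organoids. Pmaip1, which encodes NOXA, had 376, 381 and 385 TPM in organoids kept with Fusobacterium, against 138, 138 and 151 TPM without bacteria, and Bik was 2.27 ± 0.25 log2 higher, whereas Bbc3, which encodes the activator PUMA, was lower (-0.75 ± 0.14). The protective Bcl2l1 was lower, with 30.02, 31.98 and 32.7 TPM in the Fusobacterium libraries, against 59.4, 58.2 and 56.3 TPM in the untreated libraries. Among the machinery, 15 of 34 were higher and 10 lower: Ripk3, the kinase of necroptosis, had 98.95, 101 and 100.3 TPM with Fusobacterium, against 39.6, 39.4 and 40.02 TPM in untreated organoids, and Xiap, a caspase inhibitor, was lower (-0.78 ± 0.06).

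Immediate-early factors and MYC also split. Atf3, a stress-induced factor, had 78.4, 83.5 and 74.4 TPM in organoids kept with Fusobacterium, against 16.01, 15.4 and 17.8 TPM without bacteria. Jun and Jund were higher (0.93 ± 0.04 and 0.85 ± 0.05), while Fosb, with 3.12, 2.85 and 4.61 TPM in the Fusobacterium libraries, against 12.9, 13.98 and 12.3 TPM in the untreated libraries, and Junb (-0.48 ± 0.04) were lower. Fosb was higher than with Neisseria (1.49 ± 0.20 log2). Myc had 28.9, 29.1 and 27.2 TPM with Fusobacterium, against 85.7, 84.5 and 84.5 TPM in untreated organoids, and Mycn stood at -1.50 ± 0.11 log2, with Mxd4, a repressor of the same network, at -1.48 ± 0.06. Among 35 genes of the G1 phase 16 were lower (45.7%) and 10 higher (28.6%), against 32.4% and 32.8% of all genes tested. The inhibitor Cdkn2d stood at 1.51 ± 0.14 log2 and Cdk6 at -0.99 ± 0.06.

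Genes of the circadian clock counted 9 of 22 higher and 5 lower. Arntl, the clock activator BMAL1, had 46.9, 51.2 and 46.2 TPM in organoids kept with Fusobacterium, against 12.2, 13.3 and 12.5 TPM without bacteria, and Nfil3, a repressor, had 19.9, 18.5 and 18.7 TPM in the Fusobacterium libraries, against 4.84, 5.47 and 5.08 TPM in the untreated libraries. Cry1 and Cry2, which close the loop, were higher (0.87 ± 0.10 and 1.24 ± 0.13), and Nr1d2 lower (-0.59 ± 0.07). Clock did not pass (adjusted p = 0.183).

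Both plasminogen activators were higher. Plat, the tissue plasminogen activator, had 669, 653 and 672 TPM with Fusobacterium, against 115, 110.1 and 107 TPM in untreated organoids. Plau, the urokinase, was 1.83 ± 0.07 log2 higher. Timp3, which blocks matrix metalloproteinases, was 1.64 ± 0.10 log2 higher, whereas Mmp14, a membrane metalloproteinase, was -0.98 ± 0.04. In the list as a whole 18 of 42 were higher (42.9%) and 11 lower (26.2%), against 32.8% and 32.4% of all genes tested. Plat was also above its level with Neisseria (1.30 ± 0.04).

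Other receptor families added single members. Of 16 ephrins and Eph receptors 8 were higher (50%) and 5 lower (31%), against 32.8% and 32.4% of all genes tested. Efna3, a membrane-tethered ligand, had 38.97, 40.3 and 41.1 TPM in organoids kept with Fusobacterium, against 4.49, 5.59 and 5.67 TPM without bacteria, and Ephb3 was 0.95 ± 0.06 log2 higher. Of 16 TNF receptors 9 were higher (56%) and 5 lower (31%). Tnfrsf1b, the second TNF receptor, was at 60.6, 61.4 and 62.8 TPM in the Fusobacterium libraries, against 19.8, 19.8 and 19.2 TPM in the untreated libraries. Of 28 Hippo pathway genes 11 were higher (39.3%) and 13 lower (46.4%), 2 and 1 of them by at least 2-fold, with a median of -0.03. Yap1, the coactivator of the pathway, was -0.83 ± 0.05 and the related Wwtr1 1.01 ± 0.05 log2. The targets Ctgf (-0.88 ± 0.05) and Ajuba (-1.13 ± 0.05) were lower, which does not speak for targets not named here. Antimicrobial genes had 13 of 35 lower (37.1%) and 6 higher (17.1%). Pigr, which carries antibody across epithelium, had 28.8, 33.5 and 33.5 TPM with Fusobacterium, against 58.3, 61.99 and 61.98 TPM in untreated organoids. Lcn2, which sequesters siderophores, was 0.35 ± 0.06 log2 higher.

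Cytochrome P450 genes counted 8 of 23 higher and 8 lower (34.8% each), near the 32.8% and 32.4% of all genes tested. Cyp1a1, the enzyme induced through the aryl hydrocarbon receptor, had 155, 157 and 163 TPM in organoids kept with Fusobacterium, against 0.218, 0.192 and 0.411 TPM without bacteria, and Cyp1b1 was 1.75 ± 0.04 log2 higher. Relative to the other bacteria Cyp1a1 was higher by 1.75 ± 0.05 over Helicobacter and 0.44 ± 0.05 over Neisseria, while Cyp1b1 was lower (-0.71 ± 0.03 and -0.96 ± 0.03).

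Translation factors leaned downward, with 20 of 47 lower and 10 higher: Eif4g2 and Eif5 stood at -0.65 ± 0.04 and -0.67 ± 0.04 log2. The kinase Eif2ak3, which senses stress in the endoplasmic reticulum, was 0.72 ± 0.06 log2 higher.

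Genes of 2 pancreatic lists, acinar and islet, were set aside as a block. They took 0.0332% to 0.0351% of counts with Fusobacterium, 0.0594% to 0.0681% untreated and 0.0444% in Helicobacter replicate 1. Of 48 tested, 35 were lower and 5 higher with Fusobacterium, and 28 had at least 2 times the highest level of the other 8 libraries in every untreated library and in the first Helicobacter replicate. The insulin gene Ins2 averaged 0.262 TPM with Fusobacterium and 169 TPM untreated. No gene outside the lists met the same pattern among those tested. They held 32 of the 615 genes at least 2-fold lower and 1 of the 1268 at least 2-fold higher.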

How the data were processed

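RNA was sequenced as paired reads from 12 organoid libraries in 4 groups of 3. The deposited table holds total counts per gene, made by the authors, with TPM beside them per the file headers. Build GRCm38 is named in the submitters' processing notes, and the aligner, the counter and the use of strand are not given in the sources used here. Another 24 columns of the table were not used. Members, lists and motifs were chosen with earlier results of these data known.

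Counts were tested with edgeR 4.0.16 in R 4.3.3: the default filter on low counts, TMM scaling, a robust quasi-likelihood fit with 1 coefficient per group over all 12 libraries, 2-sided tests and Benjamini-Hochberg adjustment over the 12805 genes. TPM served only for levels. The common biological coefficient of variation was 5.71%. Standard errors are the log2 fold change over the square root of F. Genes were named by the rule given in the text, which ranks 18 rises and 20 falls, takes the 10 largest TPM differences each way, and takes up to 5 members at each end of the 41 lists and 43 symbol families. Motif positions were counted back from 1 at the base before the RefSeq start. The fit was tested on simulated data of 12256 genes, with 200 changed and the same spread for all. It called 48% of 1.25-fold changes, 90% of 1.5-fold and 2-fold and 100% of 4-fold, with 8 false calls. Far more genes were called in the data, so these rates need not hold there. Alternatives were DESeq2 1.42.0, limma 3.58.1 on log2 TPM with pseudocounts of 1 and 0.1, other scalings and filters, a replicate block, the 6 compared libraries alone, and leaving out each library. One more, using only libraries marked L1 in the headers, was chosen after seeing the data.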

Additional observations from a re-analysis of the deposited data

How the results depend on the processing

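With all genes, 8356 passed the threshold, and under the 16 alternatives 7795 to 8720 did. Leaving out 1 library at a time gave 7795 to 7950, and 1875 to 1922 at least 2-fold, against 1883. limma on log2(TPM + 1) gave 710 genes higher and 332 lower by at least 2-fold, 1042 in all, a scale that shrinks the fold of low genes. The balance of directions was close to even and turned in 1 alternative: the 6 compared libraries alone gave 4297 genes higher and 4423 lower, against 4206 and 4150. Every setting scaled the libraries to a common total or a typical gene, so the settings cannot test that balance. The median over all genes ran from -0.01 to 0.03. A stricter filter on low counts left 1097 genes at least 2-fold higher and no filter 1493, against 1268. Of 262 genes checked singly, 252 kept their direction and side of the threshold under every alternative run, and none of the calls reversed. The exceptions were Rela, Ltb, Ptch1, Cd63, Muc5ac and Spry2, given above, with Ptprc, Sst, Krt8 and Clock. Medians near 0 changed sign under some alternatives in the lists of mucin glycosylation, bacterial sensing, proteasome, BCL2, cytochrome P450, Hippo, cAMP and NR4A, dual-specificity phosphatase, Kruppel-like factor, complex III and IV, RNA polymerase I and III, RNA polymerase II and Mediator, and histone demethylase genes. The median of the small proline-rich genes, 0.59, came to -0.0002 with the 6 compared libraries alone.

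Replicate numbers gave no sign of pairing: deviations of same-numbered Fusobacterium and untreated libraries correlated at -0.01, 0.03 and 0.02. The labels do not say whether such libraries shared a culture or animal, and these correlations cannot settle it. With the number as a replicate block 4209 genes were higher and 4160 lower, 8369 in all. Libraries marked L1 alone gave 4084 higher and 3955 lower.

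Limits are 3 libraries a group with no stated source, counting whose use of strand is unknown, and reads shared among near-identical copies.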
